A study of Homo sapiens with 4 samples.

Results

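The genes described here are 10 components of the NF-κB pathway, and they were taken by name from the list of RNA windows bound by YTHDF1 in SNU638, an established line of human gastric cancer cells. They are the subunits NFKB1, NFKB2, RELA, RELB and REL, the IκB proteins NFKBIA, NFKBIE and NFKBIZ, and the ubiquitin regulators TNFAIP3 and TRAF6. Of the 10 genes, 8 had at least 1 listed window and 2, REL and NFKBIZ, had none. Together they held 24 of the 26819 distinct windows in the table, which covered 7550 genes, 6679 of them protein-coding. RNA immunoprecipitation sequencing (RIP-seq) had been applied to 4 libraries, 2 of IP-YTHDF1 and 2 of input. In both groups the cells overexpressed YTHDF1, spent 24 h in serum-free medium followed by 24 h of IFN-γ at 10 ng/ml, and per the study's methods the protein was pulled down through a FLAG tag. All 4 libraries came from the same line and shared the overexpression and the cytokine, so the values describe where YTHDF1-bound RNA was found under IFN-γ and not an effect of IFN-γ or of YTHDF1.

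NF-κB is a family of transcription factors that work as dimers of Rel-domain proteins and drive inflammatory, survival and antigen presentation genes. In resting cells IκB proteins hold the dimers in the cytoplasm, and signals from cytokine and pattern recognition receptors lead through ubiquitin ligases and the IκB kinase (IKK) complex to the destruction of IκB. NFKBIA and TNFAIP3 are themselves induced by NF-κB and close feedback loops, and their mRNAs are short-lived. In epithelial cells the pathway shares many target genes with the IFN-γ response. YTHDF1 is a cytoplasmic reader of N6-methyladenosine (m6A), an mRNA mark that is placed mostly within DRACH. In this 5-base motif, A, G or T is followed by A or G, then by AC, then by A, C or T.

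Each row of the deposited table is a 50 bp window with a signal value, a p-value and a q-value for IP-YTHDF1 against input. The table carries 1 value per window and none per library. How the replicates were combined is not stated in the table, and the study describes its peaks as a union over replicates, so a window may rest on a single replicate. Depth, spread between replicates and agreement of the replicates are unknown here. The study reports fewer genes with enriched mRNA than the protein-coding genes listed here, so whether its set holds the same genes is not known. Neighbouring values in any order given below cannot be told apart beyond their error. No scale is given for the signal value, which serves only to order windows within this table. A listed window shows enrichment over input and is not a measure of expression, so the labelled cell type could not be checked from the table. Of the markers looked up, 4 of 5 epithelial genes had a listed window (EPCAM, KRT8, KRT18 and KRT19, but not CDH1). Of 5 genes of blood and stroma, 0 did. Over all RefSeq protein-coding genes the share was 31.8%, and these few markers do not identify the cell type.

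The first question was which of the 10 transcripts carried YTHDF1 windows. A window was listed for 4 of the 5 subunits, for 2 of the 3 IκB proteins and for both ubiquitin regulators. Among all 20056 RefSeq protein-coding genes, expressed or not, 31.8% had a listed window. With the q-value limited to 0.001, 6 of the 10 genes kept a window, against 21.2% of all coding genes. With a Bonferroni limit over all windows counted in the listed genes, 5 did, against 12.6%. These 5 were RELA, NFKB1, NFKB2, NFKBIA and TNFAIP3. The sixth gene at the q-value limit of 0.001 was RELB. For REL, which encodes c-Rel, and NFKBIZ, which encodes the nuclear IκBζ, the table has no row. Unbound RNA and RNA with too few reads to test cannot be told apart in it.

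The 8 listed genes were first ordered by their strongest window. TNFAIP3 had the highest value at 2.94, followed by NFKB1 at 2.91 and RELA at 2.82. A gap of 0.70 separated these from NFKBIA at 2.12, TRAF6 at 2.03, NFKBIE at 1.91, NFKB2 at 1.87 and RELB at 1.84. Neighbours differed by 0.03 and 0.09 above the gap and by at most 0.12 below it. By the mean over a gene's windows the order was NFKB1 at 2.18, TNFAIP3 at 2.15, RELA at 2.04, TRAF6 at 2.03, NFKBIE at 1.91, NFKBIA at 1.72, RELB at 1.67 and NFKB2 at 1.58, so RELA and TRAF6 differed by 0.01 and no such gap was left. Over all listed protein-coding genes, the strongest window had a median of 2.23 with quartiles of 1.94 and 2.56. TNFAIP3, NFKB1 and RELA therefore lay above the upper quartile and exceeded 90.1%, 89.2% and 86.2% of listed coding genes. NFKBIA (40.8%) and TRAF6 (33.5%) lay between the quartiles, and NFKBIE (21.8%), NFKB2 (18.0%) and RELB (15.3%) lay below the lower quartile. Over coding genes the median of the strongest window was higher with more windows listed, from 2.07 with 1 window to 2.46 with 7, and among coding genes with the same number NFKBIE exceeded 29.3%, NFKB2 26.0%, RELB 16.8%, NFKBIA 42.6% and TRAF6 45.4%. Only RELB was then below the lower quartile. For comparison, the strongest window of IRF1, the target that the study followed up, had a value of 2.37 and exceeded 61.7%. Over the 8 listed genes the median was 2.08, below the coding median. By the mean over a gene's windows the direction turned, with 1.97 against 1.93 for listed coding genes.

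**Figure D1:**
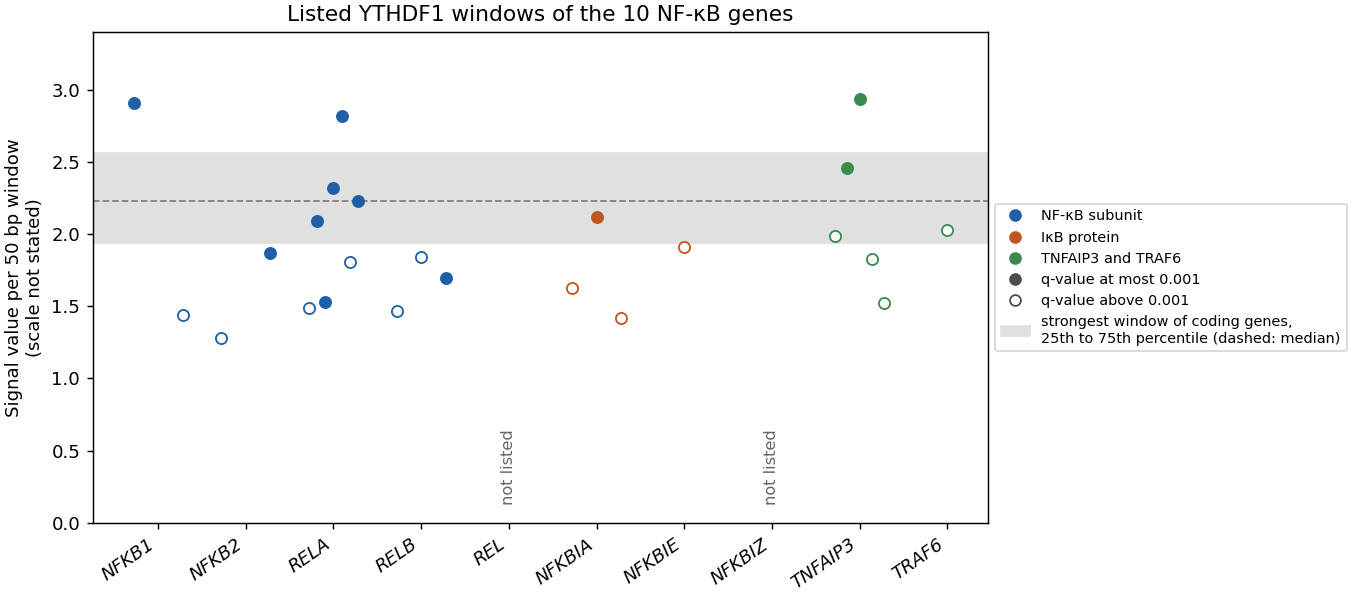
Signal value (scale not stated) of each of the 24 listed windows, by gene and in order of genome position within a gene. Filled points have a q-value of at most 0.001, the grey band runs from 1.94 to 2.56, the quartiles of the strongest window of each coding gene, and the dashed line marks its median of 2.23. Only TNFAIP3, NFKB1 and RELA have a window above the band, and REL and NFKBIZ have no window.

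The strongest windows of RELA, NFKB1 and TNFAIP3 lay near transcription start sites, where part of the reference sequence could be read. Of the 24 windows, 6 reached into the stretches from 250 bases before to 50 bases after a RefSeq start (GRCh38.p14), and 5 of them were covered over at least 40 bases. All 5 belong to RELA, NFKB1 and TNFAIP3, and the central 30 bases of the strongest covered window of each gene are printed. They are written 5′ to 3′ on the transcribed strand, and capitals mark each AC, the core that DRACH requires.
RELA, strongest window, chr11:65662908-65662937, minus strand: cgACggcgggccgcgcggcgcatttccgcc
NFKB1, strongest window, chr4:102501693-102501722, plus strand: tgccgccgcctcttccttctccagccggca
TNFAIP3, window with a signal value of 1.99, chr6:137867272-137867301, plus strand: ttcgtggcgggccaagcgagcttggagccc

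All 3 stretches are rich in G and C, and the single AC among them is not part of a DRACH match. Over the bases covered, the GC content was 74.0% in the RELA window, 79.2% in the NFKB1 window and 72.7% in the TNFAIP3 window. On the transcribed strand, 0 of the 5 covered windows held DRACH and 0 held GGAC, a shorter motif that partly overlaps it. On the opposite strand, the TNFAIP3 window held 1 DRACH match. Among 597 covered windows of all coding genes, 34.0% held DRACH on the transcribed strand (38.2% on the other strand) and 21.1% held GGAC. Their GC content had a median of 72.0%, and among the 312 windows at or above it, a limit set after the values were seen, 23.1% held DRACH. The first 50 transcribed bases held DRACH in 49.6% of the 35097 start sites in the RefSeq table. That stretch differs from most of the covered windows. Those of NFKB1 and RELA had their centres 6.5 to 227.5 bp upstream of the nearest start. The missing matches concern these letters in these 5 windows only. Of these windows 3 are neighbours in RELA, so they are not independent examples.

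RELA encodes p65, the subunit with the main activation domain. RELA (ENSG00000173039, minus strand of chromosome 11) had 7 listed windows, more than 80.2% of listed coding genes and the most of the 10 genes. As counted from its q-values and p-values, 59 windows of RELA had been tested. Of them 11.9% were listed, next to a median of 9.09% per listed coding gene. NFKBIA (11.1%) also lay above this median. Below it lay TNFAIP3 (8.93%), RELB (8.33%), NFKB2 (4.35%), NFKBIE (2.70%) and TRAF6 (2.27%). Of its windows 4 were adjacent and formed a region of 200 bp, from 65662848 to 65663047. In genome order they had signal values of 2.32, 2.82, 1.81 and 2.23. The strongest spanned a RefSeq start site, with its centre 6.5 bp upstream, and had a p-value of 7.47e-13, the smallest among the 10 genes, and a q-value of 4.41e-11. A further pair of adjacent windows, from 65661948 to 65662047, had signal values of 2.09 and 1.53. The seventh, at 65658298 to 65658347 in the middle of the gene, had 1.49 with a q-value of 0.0444. Among the 260 coding genes with the same number of listed windows, RELA's strongest exceeded 79.2%.

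NFKB1 encodes p105, which is processed to the DNA-binding subunit p50. NFKB1 (ENSG00000109320, plus strand of chromosome 4) had 2 windows that differed widely. The window at 102501682 to 102501731 had a signal value of 2.91 (q-value 3.64e-09). Its centre lay 347.5 bp from the 5′ end of the gene and 227.5 bp upstream of a second RefSeq start. The other window, 94847.5 bp from the 5′ end, had a signal value of 1.44 (q-value 0.0411). Of the 22 windows counted as tested, these were 9.09%, the same as the median over listed coding genes. Among the 1175 coding genes with 2 listed windows, the strongest NFKB1 window exceeded 93.4%.

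NFKB2 encodes p100, the precursor of p52 in the non-canonical branch. NFKB2 (ENSG00000077150, plus strand of chromosome 10) also had 2 windows, of 46 tested, and both lay inside the gene. They had signal values of 1.28 (102399411 to 102399460) and 1.87 (102399611 to 102399660). The latter was weaker than that of most listed coding genes by signal value, but its p-value of 1.49e-10 was as small as that of the NFKB1 window (1.65e-10). The partner of p52, RELB (ENSG00000104856, plus strand of chromosome 19), had 3 separate windows of 36 tested. Their signal values were 1.47, 1.84 and 1.70 in genome order. In RELB the strongest window (45012200 to 45012249, q-value 0.0278) was not the one with the smallest q-value, which was 1.9e-05 at 45022100 to 45022149. Of the 6 genes with more than 1 window, the other 5 had the strongest window and the smallest p-value together.

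**Figure D2:**
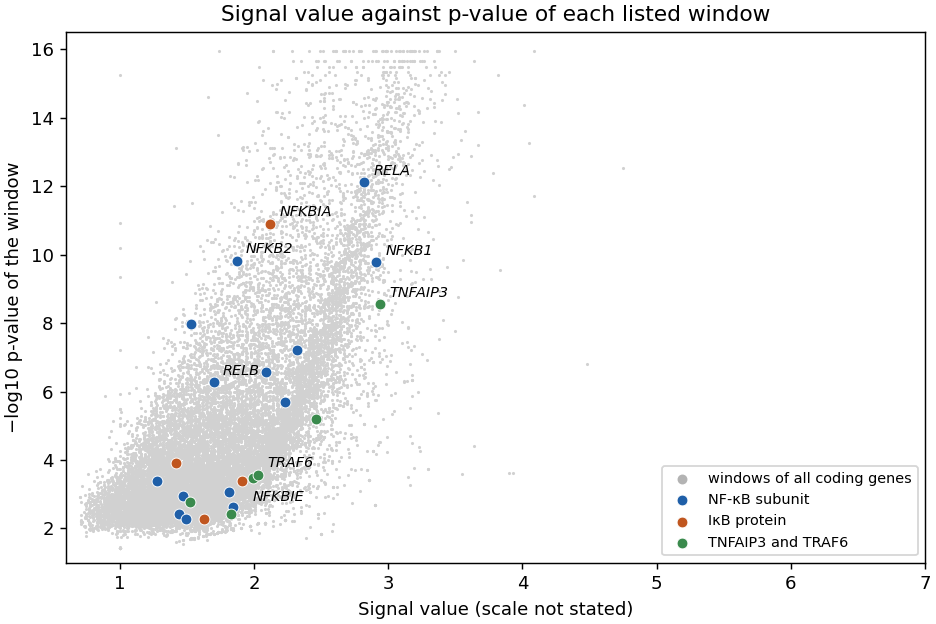
Signal value (x axis, scale not stated) against −log10 of the p-value (y axis) for the 24 windows in colour and for the 24316 windows of coding genes with a p-value above 0 in grey, where 438 with a p-value listed as 0 are not drawn. Names mark the window with the smallest p-value of each gene. NFKB2 and NFKBIA reach small p-values at moderate signal values of 1.87 and 2.12, whereas TNFAIP3 has the highest signal value of the 24 windows, 2.94, with a p-value of 2.76e-09.

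Among the inhibitors, NFKBIA encodes IκBα, which is resynthesised soon after each round of activation. NFKBIA (ENSG00000100906, minus strand of chromosome 14) had 3 windows of 27 tested. An adjacent pair from 35404562 to 35404661 had signal values of 2.12 and 1.42, at 162.5 and 112.5 bp from the start of the gene. The stronger of them had a p-value of 1.23e-11, the second smallest among the 10 genes (q-value 3.33e-10). The other window, at 35403712 to 35403761, had a signal value of 1.63 (q-value 0.0460). NFKBIE, which encodes IκBε (ENSG00000146232, minus strand of chromosome 6), had a single window of 37 tested. It lay at 44258717 to 44258766, 575.5 bp from the 3′ end of the gene, with a signal value of 1.91 (q-value 0.0153). It was the only listed window of the 10 genes within 1000 bp of a gene's 3′ end, and 1 of 24 (4.17%) is close to the 4.29% of windows of all coding genes that lay there.

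TNFAIP3 encodes A20, a ubiquitin-editing enzyme that shuts down signalling to IKK. TNFAIP3 (ENSG00000118503, plus strand of chromosome 6) had 5 windows of 56 tested. Next to a RefSeq start inside the gene, 3 windows between 137867265 and 137867464 had signal values of 1.99, 2.46 and 2.94. Their centres lay 30.5, 130.5 and 180.5 bp from that start, and 940.5, 1040.5 and 1090.5 bp from the 5′ end of the gene. The 2 farther along the gene were weaker, with 1.83 at 137874865 to 137874914 and 1.52 at 137881565 to 137881614. The strongest had a q-value of 1.54e-07, and among 483 coding genes with 5 listed windows it exceeded 86.7%. TRAF6, a ubiquitin ligase that activates the IKK branch from interleukin-1 and Toll-like receptors (ENSG00000175104, minus strand of chromosome 11), had a single window of 44 tested. It lay at 36490320 to 36490369, 6575.5 bp from the 3′ end, with a signal value of 2.03 (q-value 0.0118).

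The next question was where along the genes the windows lay. Within 500 bp of a RefSeq start were 10 of the 24 windows (41.7%), against 29.8% of the 23117 windows of coding genes that could be placed. These 10 came from 4 genes, RELA (4), TNFAIP3 (3), NFKBIA (2) and NFKB1 (1), and no test was made because windows of a gene are not independent. A start here is any RefSeq start of the gene, also one inside it. From the 5′ end of the gene, the 4 RELA windows lay 834.5 to 984.5 bp and the 3 TNFAIP3 windows 940.5 to 1090.5 bp. The NFKBIA windows lay 112.5 and 162.5 bp and the NFKB1 window 347.5 bp from that end. Signal values of the 10 windows ran from 1.42 to 2.94 with a median of 2.28, and those of the other 14 ran from 1.28 to 2.09 with a median of 1.67. Over all placed windows of coding genes the medians were 1.99 near a start and 1.76 elsewhere. The strongest window lay near a start in 4 of the 8 genes (50%), against 37.0% of 6278 coding genes, and with 8 genes these shares are not told apart. Those 4 genes had strongest values from 2.12 to 2.94. NFKB2, RELB, NFKBIE and TRAF6, whose strongest window lay elsewhere, had values from 1.84 to 2.03. These sets were 0.09 apart, between NFKBIA and TRAF6, with no error known for either value, and they overlapped by the mean over a gene's windows, where NFKBIA at 1.72 was below TRAF6 and NFKBIE. Coding genes at large differed in the same direction by less, with medians of 2.33 for 2323 genes whose strongest window lay near a start and 2.16 for 3955 others, and their ranges overlapped widely. Distances include introns, and whether a window fell in an exon or an untranslated region was not analysed here. No window overlapped a listed window of another gene on either strand.

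**Figure D3:**
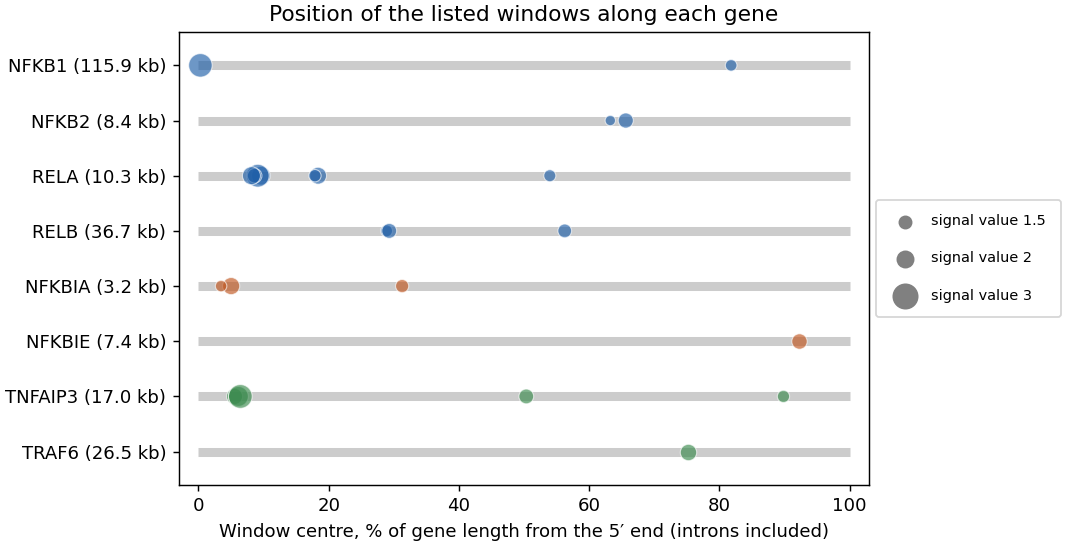
Position of the listed windows along the 8 listed genes, as percent of the RefSeq gene length from the 5′ end with introns included, where the area of a point grows with the square of the signal value. The largest points of RELA, NFKB1, NFKBIA and TNFAIP3 lie in the first 10% of the gene, and the windows of NFKB2, RELB, NFKBIE and TRAF6 lie farther along.

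The rest of the pathway was then examined with lists of 92 further genes. A window was listed for 58 of them (63.0%), 40 kept a window at a q-value of at most 0.001 and 24 under the Bonferroni limit. These shares are read beside the 31.8%, 21.2% and 12.6% of all coding genes, which include genes that SNU638 cells may not express, and they are no test of the lists. The number listed in each group below is likewise read beside the 31.8%. All lists were chosen with earlier results of these data known. The median of the strongest window over the 58 listed genes was 2.24, next to 2.23 for all listed coding genes. Of the other IκB family members, NFKBIB, NFKBID and BCL3, 0 of 3 were listed. Over the IκB family as a whole 2 of 6 genes had a window, and this 33.3% is close to the 31.8% of all coding genes.

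Around IKK, 9 of 12 kinases and activators were listed. The catalytic subunits CHUK (IKKα) and IKBKB (IKKβ) had 1 window each, with signal values of 2.89 and 1.88, and the scaffold IKBKG (NEMO) had 2 with a highest value of 1.93. MAP3K7 (TAK1), which phosphorylates IKK, had 7 windows and the highest value of the list, 2.95, and its partners TAB1, TAB2 and TAB3 had highest values of 2.35, 1.70 and 2.09. MAP3K3, another kinase upstream of IKK, had 8 windows with a highest value of 2.67. MAP3K14 (NIK), the kinase of the non-canonical branch, had 7 windows with a highest value of 2.19. The IKK-related kinases TBK1 and IKBKE and the kinase MAP3K8 had no row.

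Of the receptor-proximal adaptors and kinases, 12 of 15 were listed. TRAF1, TRAF2, TRAF3 and TRAF5 each had a window, with highest values of 2.15, 2.45, 2.51 and 1.93, so TRAF6 at 2.03 lay inside their range. MALT1, a paracaspase that can cleave A20, was the strongest at 2.77. It was followed by TRADD, the adaptor of the TNF receptor, at 2.69 and TANK, a TRAF-binding adaptor, at 2.57. IRAK2, IRAK4 and BCL10 were not listed. Among the receptors 7 of 14 were listed, from 1.59 in TNFRSF1A, the main TNF receptor, to 2.86 in TLR3, a sensor of double-stranded RNA, with NOD1 at 2.52 and TLR2 at 2.28. TLR4, CD40 and IL1R1 were among those without a row.

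Ubiquitin enzymes on both sides of the pathway were listed. Of the ligases 7 of 12 had a window. The members of the linear ubiquitin complex, SHARPIN, RNF31 (HOIP) and RBCK1 (HOIL-1), had highest values of 2.77, 2.26 and 1.57, and BIRC2 (cIAP1) had 2.69. FBXW11 (β-TrCP2), which marks IκB for destruction, had 2.28, whereas BTRC (β-TrCP1), BIRC3 (cIAP2), XIAP, PELI1 and PELI2 had no row. Of the deubiquitinases and other brakes 9 of 14 had a window. OTULIN, which removes linear chains, had 8 windows and a highest value of 3.19, the largest of all 102 pathway genes examined. The A20 partners TNIP1 (ABIN-1) and RNF11 had highest values of 2.34 and 2.86, and CYLD had 1.89. N4BP1 was the second strongest of this list at 2.99, while the A20 partners TAX1BP1 and ITCH were not listed.

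Of 22 well-known target genes of NF-κB, 14 were listed. The chemokines CXCL1, CXCL2, CXCL3 and CXCL8 had 1 window each, with values of 2.08, 2.23, 2.03 and 2.22. CXCL1, CXCL2 and CXCL3 are close copies of each other, and how reads with several matches were handled is not given in the sources used here, so their values are uncertain. SOD2, BCL2L1 and ICAM1 were the strongest, at 2.70, 2.67 and 2.58, where the windows of SOD2 were split over 2 gene identifiers. The lowest values were 1.11 in PLAU, 1.12 in IER3 and 1.31 in LIF. CCL2, CCL20, IL6, TNF, LTB, VCAM1, PTGS2 and MMP9 had no row.

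**Figure D4:**
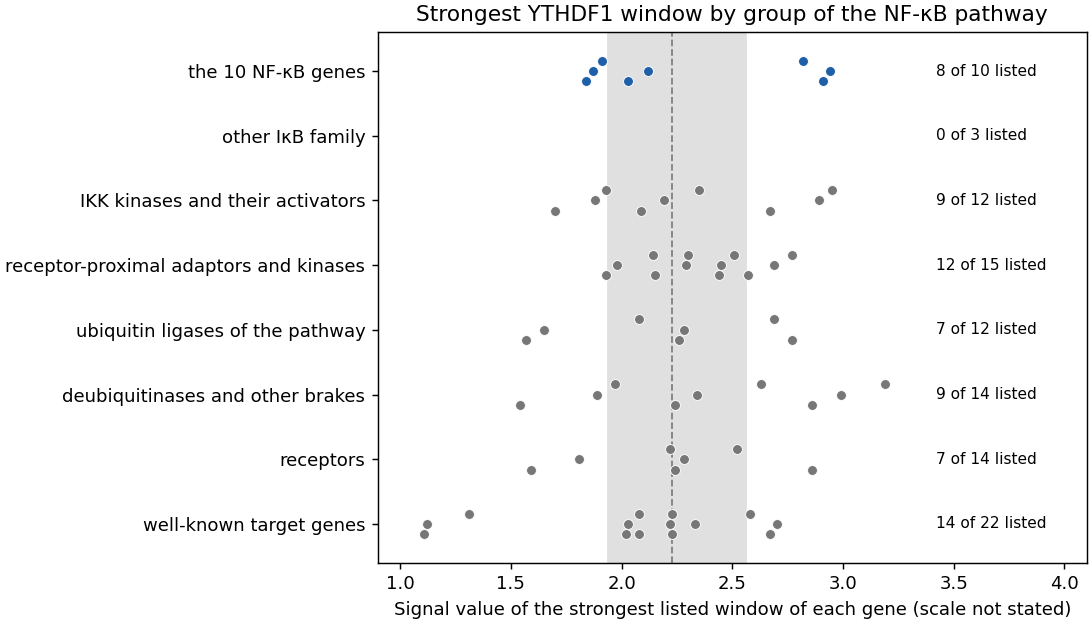
Signal value of the strongest listed window of each gene (x axis, scale not stated), by group of the NF-κB pathway, where each point is a gene and vertical offsets only separate points. The grey band and the dashed line give the quartiles, 1.94 and 2.56, and the median, 2.23, over all listed coding genes. Each group spans the band, from 1.11 in PLAU to 3.19 in OTULIN, except the other IκB genes, of which none is listed.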

How the data were processed

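RIP-seq libraries of IP-YTHDF1 and input (2 biological replicates each) were made by the authors with a stranded kit after ribosomal RNA depletion. The submitters' processing notes name STAR 2.7.3a and GRCh38. The peak caller and its window test are not given in the sources used here. The deposited table holds a signal value and a rank per window, read here as scores, and p-values and q-values given by the authors. The number of columns per library is 0, so IP-YTHDF1 and input were not tested against each other, and depth is unknown. Of 26820 rows, 1 duplicate was dropped. Starts are printed counted from 1.

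The 10 genes and all lists were chosen with earlier results of these data known. Every one of the 10 genes is named, and further pathway genes by list, with values for the 3 strongest of a list as the naming rule set, and for others picked by their role after the values were seen. Of 6674 coding symbols, 6370 (95.4%) matched RefSeq protein-coding genes (GRCh38.p14). Windows tested per gene were computed from q-values divided by p-values, assuming Benjamini-Hochberg adjustment within a gene (a lower bound for genes with 9 listed windows). Whether the authors adjusted the q-values in this way was not tested. Under this assumption the computation gave 298184 windows and a Bonferroni limit of 1.68e-07 on the p-value. Distances run from the window centre to the nearest start in the RefSeq tables. Alternatives were a q-value of 0.001, a signal value of 2, adjustment over all counted windows, joined windows, means per gene and leaving out shared windows. The tools were SciPy 1.17.1, NumPy 2.4.6, pandas 2.3.3 and matplotlib 3.10.9 under Python 3.11.15.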

Additional observations from a re-analysis of the deposited data

How the results depend on the processing

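No paired analysis was possible because no value belongs to a single library. Under the stricter limits fewer windows of the 10 genes were left, which follows from the limits themselves. Of the 24, 11 were left at a q-value of at most 0.001, 9 at a signal value of at least 2 and 7 under the Bonferroni limit. The shares of all listed windows that pass these limits are not given here, so these counts are not read as high or low. Signal values of the 24 windows had a median of 1.855, next to 1.84 over all 26819 listed windows. Genes with a window fell from 8 to 5 at a signal value of at least 2 (RELA, NFKB1, NFKBIA, TNFAIP3 and TRAF6, against 22.0% of all coding genes) and to 5 under the Bonferroni limit, where NFKB2 stood in place of TRAF6. The 58 further pathway genes fell to 24 under the Bonferroni limit. Benjamini-Hochberg adjustment over all counted windows left 22 windows in all 8 genes. It left a window in 31.4% of all coding genes, next to 31.8% without it. Only windows of listed genes were counted, so this setting could remove few genes and says little about the 8. Joining touching windows gave 18 regions. With the mean over the windows of a gene in place of the strongest, the median over the 8 genes was 1.97, above the 1.93 of coding genes, whereas by strongest window it was 2.08, below the 2.23 of coding genes. The number of windows near a start was 10 (41.7%) within 250 bp and 12 (50%) within 1000 bp, next to 20.9% and 36.2% of windows of coding genes, distances chosen after the data were seen. Without values per library, none of these settings shows how the windows vary between replicates.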
